A study of Homo sapiens with 6 samples.

Results

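The miR-193 and miR-365 microRNAs were examined after exposure of HuH7 cells, a line established from a human liver cancer (hepatocellular carcinoma), to cisplatin, a platinum drug that crosslinks DNA. The members were chosen by name, as the array probes whose names begin with miR-193a, miR-193b, miR-365a or miR-365b, which gave 7 of 2019 human miRNA probes. No signal threshold entered that choice, but the group was proposed with earlier cisplatin differences of these arrays known, so its differences between the groups are given as a description. Cells of the cisplatin group received 1 µg/ml of the drug for 24 h and cells of the control group none, and total RNA of 3 samples per group was hybridised to 1-colour arrays. Sample numbers are given within each group, but the labels do not say that they were separate cultures, so errors and p-values measure the spread among these 6 samples alone, possibly a technical one, and the number of arrays limits the precision.

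A miRNA is cut from a hairpin whose 5p and 3p arms can each give a mature strand, and the strand's seed, bases 2 to 8, pairs with target mRNAs. The miR-193 and miR-365 hairpins lie near each other at a pair of loci, whose hairpins are paralogs of each other. miR-193a-3p and miR-193b-3p are known as brakes on growth, with the anti-apoptotic protein MCL1 and the cell cycle protein cyclin D1 (CCND1) among their targets, and miR-365-3p is also known to act on cyclin D1.

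The mature sequences are shown because they decide which strands can act alike and which probes can tell the copies apart. They are from RefSeq (GRCh38.p14), all on the plus strand, written 5′ to 3′ with the seed in capitals, and all 8 mature strands of the 4 hairpins were found there.
hsa-miR-193a-3p: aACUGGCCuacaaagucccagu
hsa-miR-193b-3p: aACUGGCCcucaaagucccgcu
hsa-miR-365a-3p: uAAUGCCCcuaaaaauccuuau
hsa-miR-365b-3p: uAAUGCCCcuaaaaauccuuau
hsa-miR-193a-5p: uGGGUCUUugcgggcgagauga
hsa-miR-193b-5p: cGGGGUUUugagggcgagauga
hsa-miR-365a-5p: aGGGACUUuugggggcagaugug
hsa-miR-365b-5p: aGGGACUUucaggggcagcugu

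miR-193b-3p lies at chr16:14304017-14304038 and miR-365a-3p at chr16:14309340-14309361. Their hairpins are 5.24 kb apart, and both lie within the long non-coding RNA gene MIR193BHG. miR-193a-3p lies at chr17:31560050-31560071 and miR-365b-3p at chr17:31575478-31575499, with 15.33 kb between the hairpins. MIR365B lies within MIR365BHG, while RefSeq placed MIR193A within no other gene.

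The miR-193 3p arms share the seed ACUGGCC with each other and with no further strand among the 2370 mature names of the RefSeq table. Over their 22 bases they differ at 4, U9C, A10U, A20G and G21C (the base of miR-193a-3p, the position from 1 at the 5′ end, then the base of miR-193b-3p). The miR-365a and miR-365b 3p arms are identical over all 22 bases, and the array measures them with 1 probe that carries both names. What this probe reads can therefore come from the chromosome 16 or the chromosome 17 copy. The 5p arms of miR-193a and miR-193b also differ at 4 of 22 positions, U1C, U5G, C6U and C11A, and their seeds differ, while the 5p arms of miR-365a and miR-365b share the seed GGGACUU and differ at 3 of the 22 positions compared (U10C, G11A and A19C). Whether the probes distinguish such close strands was not tested.

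Foreground is the median pixel brightness of a spot on the scanner's linear scale, and a probe was called detected on an array where its foreground lay more than 2 SD above the mean of that array's 925 blank spots. Across the 6 arrays the 7 probes reached at most 354. The liver miRNA miR-122-5p, the defining marker of hepatocyte lineage, lay between 4337 and 4901 on cisplatin and between 4739 and 5169 on control arrays, and all 4 identity probes for HuH7 (both arms of miR-122, miR-192-5p and miR-194-5p) were detected on all 6 arrays. Of 10 probes for blood, endothelial, stromal and muscle miRNAs, miR-126-3p, miR-143-3p and miR-145-5p were detected on all 6 arrays, miR-142-3p and miR-451a on 4, miR-206 on 2, miR-133a and miR-223-3p on 1, and miR-142-5p and miR-1 on 0. These 10 were chosen for lineages that HuH7 should not supply. On cisplatin arrays miR-126-3p lay between 281 and 346, miR-143-3p between 268 and 297 and miR-145-5p between 267 and 315. On control arrays they lay between 251 and 325, 243 and 282, and 257 and 275. They were about as bright as the miR-193 3p probes, so detection alone does not show that the cells make a strand. Local background, the median brightness around a spot, was lower on the cisplatin array in each same-numbered pair, with medians over the human probes of 141, 176 and 154 on cisplatin and 154, 185 and 168 on control arrays 1, 2 and 3.

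miR-193b-3p and miR-193a-3p, which share 1 seed, were the members detected on all 6 arrays. miR-193b-3p had a raw foreground of 307, 354 and 332 on cisplatin arrays 1, 2 and 3, against 241, 320 and 309 on control arrays 1, 2 and 3. The groups overlapped, though the cisplatin array was the brighter in all 3 same-numbered pairs. The 241 of control array 1 stood far below the other values. That array is also the only one where the probe was no brighter than the brightest of the 24 negative control spots (241). Above its own local background the spot had 177, 199 and 199 on cisplatin arrays, against 109, 157 and 164 on control arrays, without overlap. These values are not normalized between arrays, and the share of all probes without overlap on this scale was not counted. Its local background was lower on the cisplatin array of each pair, at 130, 155 and 133 against 132, 163 and 145.

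miR-193a-3p had 247, 310 and 318 on cisplatin arrays, against 258, 285 and 314 on control arrays. The ranges nearly coincided, and array 1 was the dimmest in either group. This probe was brighter than every negative control spot on all 6 arrays.

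The shared miR-365a-3p and miR-365b-3p probe had 235, 260 and 255 on cisplatin arrays, against 223, 252 and 221 on control arrays. It passed the limit on every cisplatin array and on 2 of 3 control arrays. The raw groups overlapped, but the cisplatin array was the brighter in all 3 same-numbered pairs. On cisplatin arrays it exceeded the brightest negative control spot in 3 of 3 cases, and on control arrays in 0 of 3. Above its own local background the spot had 115, 115 and 131 on cisplatin arrays, against 97, 94 and 85 on control arrays, without overlap. Here too the share of all probes without overlap on this scale was not counted. Its local background was lower on the cisplatin array of each pair, at 120, 145 and 124 against 126, 158 and 136.

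Among the 5p arms, miR-193a-5p had 205, 228 and 242 on cisplatin arrays, against 234, 240 and 243 on control arrays, and was detected on 1 of 3 cisplatin and 3 of 3 control arrays. On control array 2 its 240 passed a limit of 239.8. Of the blank spots, 48, 84 and 3 were at least as bright on the cisplatin arrays and 1, 29 and 0 on the control arrays. The probe exceeded the brightest negative control spot on 0 of 3 cisplatin and 1 of 3 control arrays. Above its own local background it had 65, 66 and 93 on cisplatin arrays, against 95, 65 and 87 on control arrays.

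miR-193b-5p lay between 224 and 234 on cisplatin and between 211 and 237 on control arrays, and was detected on 2 and 1 arrays. miR-365a-5p lay between 205 and 251 on cisplatin and between 215 and 236 on control arrays, and miR-365b-5p between 205 and 230 and between 219 and 239, each detected on 1 array per group. These 3 probes overlapped between the groups and were not well above background on most arrays, so no fold is given for them. Open symbols in the plot of raw signal mark readings at or below the limit.

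**Figure D1:**
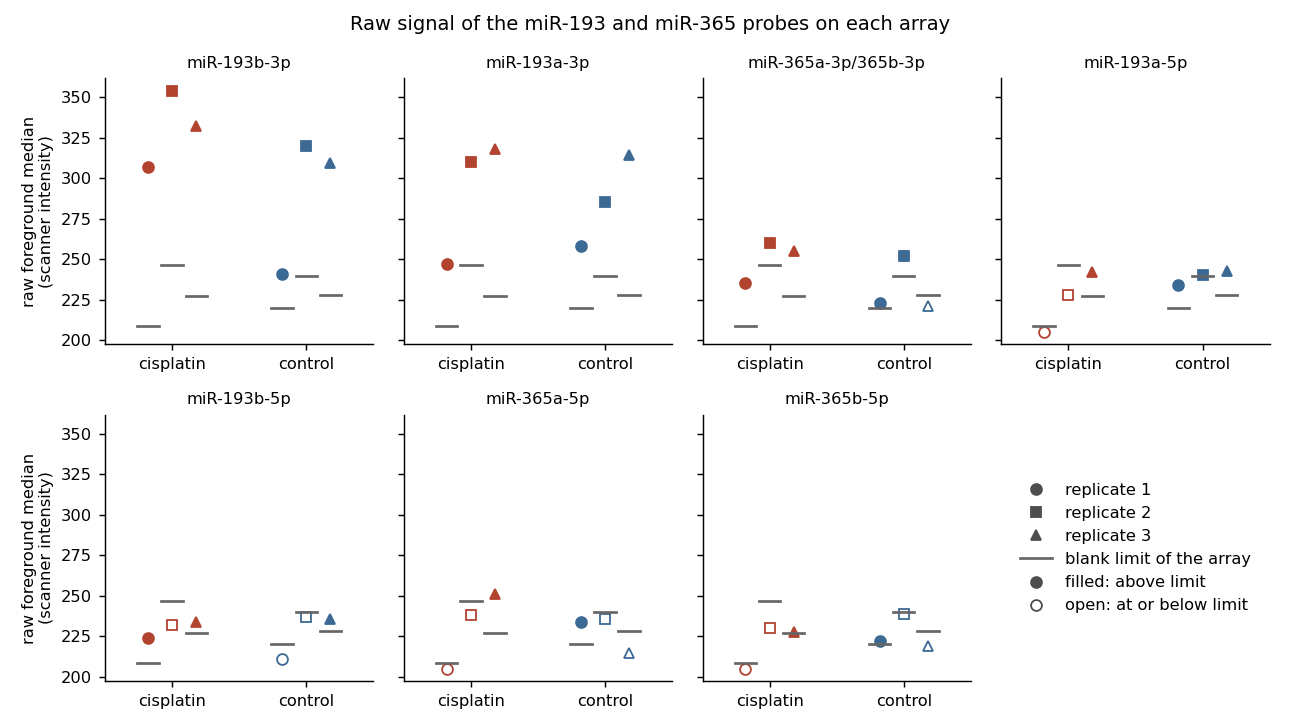
Raw foreground median (scanner intensity, linear axis that starts above 0) of each of the 7 probes on the 3 cisplatin arrays (left, red) and the 3 control arrays (right, blue); grey bars give each array's blank limit and open symbols lie at or below it. miR-193b-3p and miR-193a-3p lie above the limit on all 6 arrays, and the 5p probes lie around it.

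The comparison of cisplatin with control asks which miRNAs differ after the drug, the question the series names. Values were corrected with normexp, quantile-normalized and compared with limma on the log2 scale over the 324 probes that were detected throughout the 3 arrays of either group. In RNA of a whole culture, fewer cells with a miRNA and less of it per cell cannot be told apart. Among the 7 members, 4 met this filter. The shared miR-365 3p probe met it only through the cisplatin arrays and miR-193a-5p only through the control arrays, the groups where each was brighter, so a difference was built into their entry and the members that passed do not stand for all 7.

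None of the 4 was called at a Benjamini-Hochberg adjusted p under 0.05, and over all tested probes limma called 0.309% (1 of 324). With the replicate number as a block it called 0 of all tested probes, with 57 at an unadjusted p under 0.05. At an unadjusted p under 0.05 there was 1 of 4 members, the shared miR-365 3p probe, against 15.7% of all tested probes. That probe was also the only one of the 7 whose normalized values did not overlap between the groups, as was so for 18.8% of all tested probes. Of the 4 differences, 2 were positive and 2 negative, and the median over all tested probes was -0.012.

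The shared miR-365a-3p and miR-365b-3p probe had normalized log2 values of 7.26, 7.19 and 7.23 on cisplatin arrays 1, 2 and 3, against 7.07, 7.11 and 6.91 on control arrays. All 3 cisplatin values lay above all 3 control values. The log2 difference was 0.20 (SE 0.068, 95% interval 0.030 to 0.37), or 1.15-fold, with a limma adjusted p of 0.252. It was 0.14 (SE 0.049) without background correction, 0.073 (SE 0.13) with 75th percentile scaling and 0.090 (SE 0.065) with pixel means in place of pixel medians. With 75th percentile scaling the median over all tested probes was -0.088, and less this shift the probe's difference was 0.16. It was larger with plain background subtraction (0.27, SE 0.091), with a normexp offset of 10 (0.28, SE 0.095) and with the authors' values (0.66, SE 0.27). The last was 0.58 less the shift of all probes tested in that setting. In the authors' deposited table, which lists a value only above a limit, the probe is listed on 3 cisplatin arrays (47.85, 49.96 and 51.43) and on 2 control arrays (26.99 and 36.58).

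miR-193b-3p, from the hairpin next to miR-365a, had normalized log2 values of 7.76, 7.71 and 7.70 on cisplatin arrays, against 7.24, 7.69 and 7.70 on control arrays. Its group means were 7.72 ± 0.033 with cisplatin and 7.55 ± 0.26 in control (SD, n = 3 each). The log2 difference of 0.18 (SE 0.14, 95% interval -0.16 to 0.52) lay within the spread between replicates. Within same-numbered pairs it was 0.52, 0.020 and -0.0079, and without control replicate 1 it was 0.025 (SE 0.048). After quantile normalization the difference thus rested on 1 control array. The signal above local background, which is not normalized between arrays, was also lowest on that array (109). In the authors' deposited table the probe has 115.3, 143.8 and 130.1 on cisplatin arrays and 45.05, 99.8 and 111.7 on control arrays, again lowest on control array 1. There all 3 cisplatin values lay above all 3 control values, with a log2 difference of 0.70 (SE 0.33). The limma adjusted p was 0.629, and the difference was 0.62 less the 0.080 median shift of the 519 probes tested there. How many of those probes separate in this way was not counted. On each array the listed values correlated at 1 with the foreground, so they are not a separate measurement.

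miR-193a-3p, the strand with the same seed from chromosome 17, had normalized log2 values of 7.23, 7.45 and 7.59 on cisplatin arrays, against 7.32, 7.37 and 7.71 on control arrays. The values of the groups were interleaved, and within the pairs the cisplatin array was the higher in 1 of 3. The log2 difference was -0.044 (SE 0.14, 95% interval -0.40 to 0.31), and 0.073 (SE 0.13) without control replicate 3 and 0.054 (SE 0.14) without cisplatin replicate 1. It had no settled sign.

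miR-193a-5p, the opposite arm of that hairpin, had 6.62, 6.72 and 6.89 on cisplatin arrays, against 7.04, 6.77 and 6.93 on control arrays. After normalization it was the lower in the cisplatin array of all 3 pairs, by -0.42, -0.051 and -0.043, but the groups overlapped. Above local background it was the lower only in pair 1. The log2 difference was -0.17 (SE 0.10, 95% interval -0.43 to 0.084), and -0.11 (SE 0.11) without control replicate 1 and -0.11 (SE 0.11) without cisplatin replicate 1. Without background correction it was -0.059 (SE 0.043). It was further from 0 with a normexp offset of 10 (-0.27, SE 0.15), with 75th percentile scaling (-0.33, SE 0.14), and without control replicate 2 or cisplatin replicate 3 (-0.24, SE 0.10 in both). With 75th percentile scaling it was -0.24 less the shift of all tested probes.

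**Figure D2:**
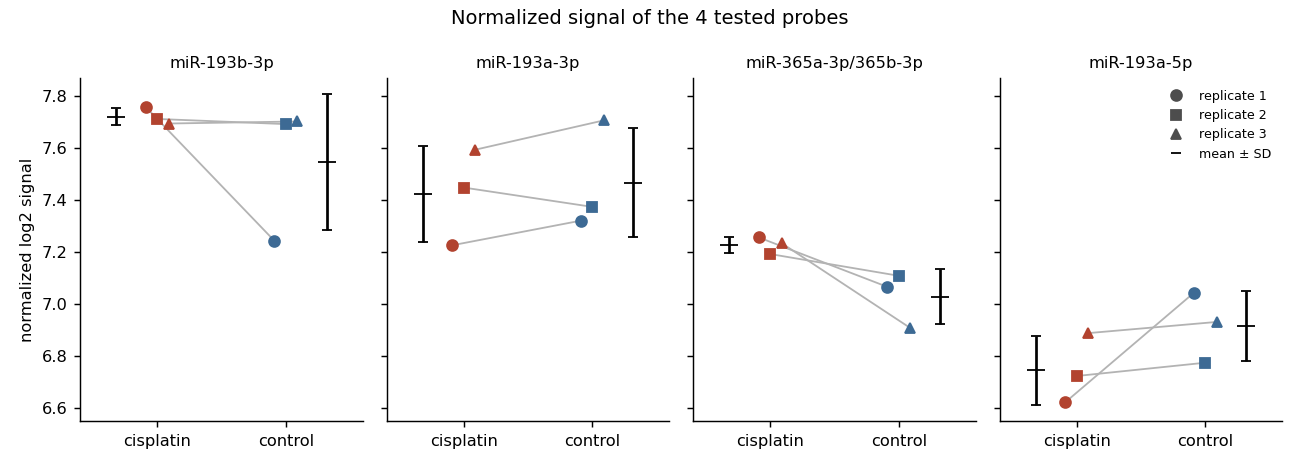
Normalized log2 signal of the 4 tested probes on cisplatin arrays (left) and control arrays (right); grey lines join samples of the same replicate number and black bars give the mean ± SD of 3 arrays. The miR-365 3p values separate by group, while the miR-193b-3p groups differ mainly in control replicate 1.

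**Figure D3:**
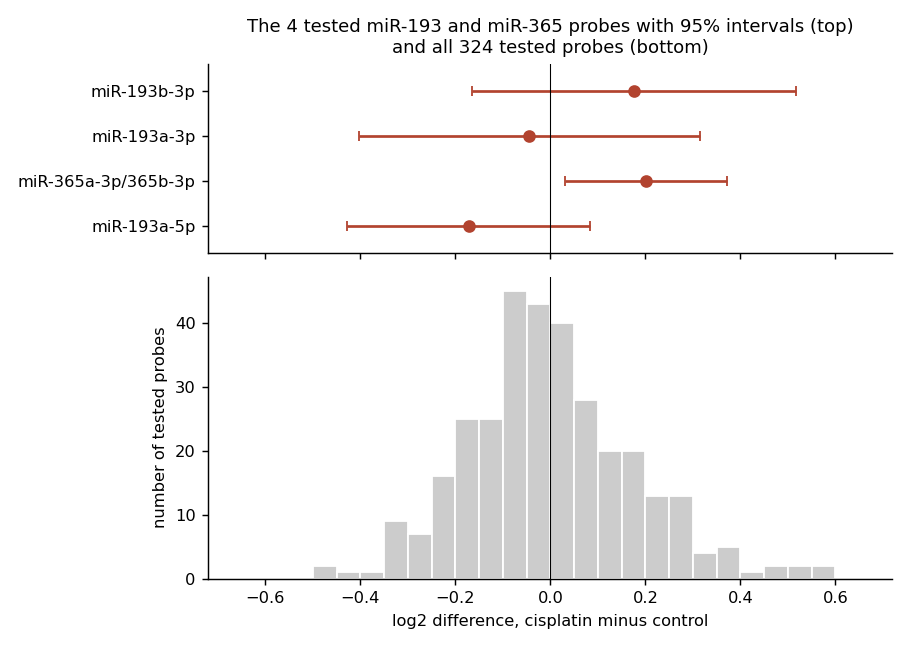
Log2 differences (cisplatin minus control) of the 4 tested probes with limma 95% intervals (top), and the number of probes per 0.05 of log2 difference over all 324 tested probes (bottom). The 4 members lie within the main body of the distribution, and the interval of the miR-365 3p probe is the only one of the 4 that does not include 0.

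The scanner files place the arrays at slide positions 4, 2 and 4 (cisplatin 1, 2 and 3) and 3, 1 and 3 (control 1, 2 and 3). Each position carried arrays of 1 group, and what a position and what the drug contributes cannot be told apart. In replicate 2, at positions 2 (cisplatin) and 1 (control), the miR-365 3p probe differed by 0.084, miR-193b-3p by 0.020, miR-193a-3p by 0.074 and miR-193a-5p by -0.051. Fitted on replicates 1 and 3, which lay at positions 4 and 3, the values were 0.25 (SE 0.082) for the miR-365 3p probe, 0.25 (SE 0.18) for miR-193b-3p, -0.11 (SE 0.20) for miR-193a-3p and -0.23 (SE 0.12) for miR-193a-5p.

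Neighbours on a chromosome and strands that share a seed did not stand out as alike over the 6 arrays. Likeness was measured as the root-mean-square difference of log2 values after each probe was centred on its own mean. Ranked among the 323 other tested probes, the miR-365 3p probe was 85th from miR-193b-3p (0.18), the strand of the neighbouring hairpin. From miR-193a-3p, the neighbour of its chromosome 17 copy, it was 216th (0.25). miR-193b-3p was 151st from miR-193a-3p (0.21), with which it shares its seed. miR-193a-5p was 64th from miR-193a-3p (0.16), the other arm of its hairpin. This is a description over 6 arrays that share their processing.

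The probes nearest to each member were none of the other members. For miR-193b-3p they were miR-22-3p (0.032), miR-26b-5p (0.067) and miR-483-3p (0.071), where the median over all tested probes was 0.23. All 3 were lowest on control array 1, like miR-193b-3p itself, which their choice by likeness over these arrays favours. Of all tested probes, 24.1% had their lowest value on control array 1, the largest share of the 6 arrays. For the miR-365 3p probe the nearest were miR-92b-5p (0.052), miR-671-5p (0.057) and miR-34a-5p (0.069), with log2 differences of 0.15, 0.26 and 0.31. The centred values still hold the difference between the groups, so the choice by likeness favours the same sign. For miR-193a-3p they were miR-194-5p (0.080), miR-6090 (0.080) and miR-6076 (0.081), and for miR-193a-5p miR-939-5p (0.072), miR-378i (0.075) and miR-7-5p (0.080).

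**Figure D4:**
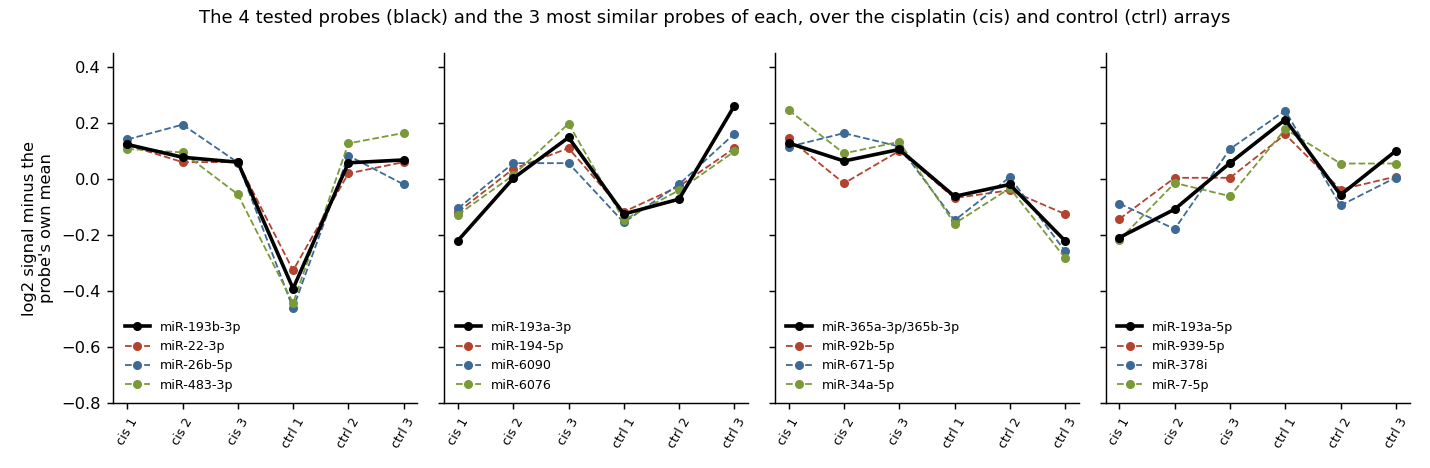
Centred log2 signal over the 3 cisplatin and 3 control arrays of each tested probe (black) and of the 3 tested probes with the smallest root-mean-square difference from it (dashed). miR-193b-3p and its 3 nearest probes all have their lowest value on control array 1, which the choice by likeness favours.

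A further miRNA hairpin, MIR4725, lies 52 bases from MIR365B on chromosome 17, between it and MIR193A. miR-4725-3p was detected on all 6 arrays, with a foreground of 229, 257 and 241 on cisplatin arrays and 229, 254 and 229 on control arrays. Its log2 difference was 0.16 (SE 0.082), and it was not called. miR-4725-5p was detected on 0 of 3 cisplatin and 1 of 3 control arrays.

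Other miRNAs known to act on MCL1 or cyclin D1, the targets named above, were followed as a list of 17. Of these, 13 were tested, 0 were called higher and 0 lower, and 2 had an unadjusted p under 0.05, beside 0.309% called and 15.7% at that unadjusted p over all tested probes. Among the tested probes 11 lay above 0 and 2 below it, and their median difference was 0.13 beside -0.012 over all tested probes. The list holds related strands, such as miR-29a-3p, miR-29b-3p and miR-29c-3p, and this direction was not tested. The brightest were miR-17-5p (-0.16, SE 0.18), miR-20a-5p (-0.17, SE 0.16), miR-16-5p (0.13, SE 0.099) and miR-15b-5p (0.22, SE 0.14).

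**Figure D5:**
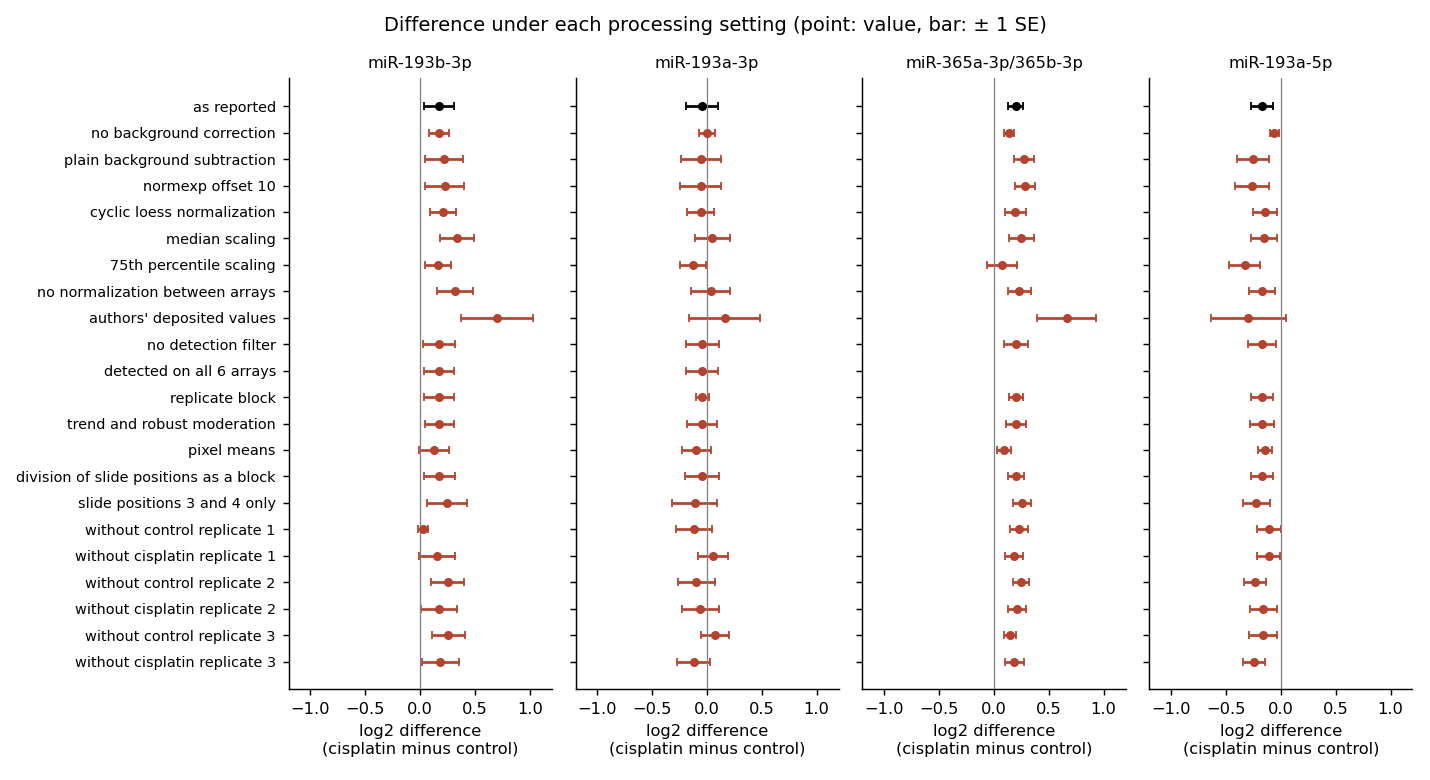
Log2 difference (cisplatin minus control) of each of the 4 tested probes as reported (black) and under each processing alternative (red), with bars of ± 1 SE. The miR-365 3p and miR-193b-3p values stay above 0 and the miR-193a-5p values below 0, while miR-193a-3p lies on either side.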

How the data were processed

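MicroRNA was measured on 6 one-colour arrays (3 cisplatin, 3 control). Per the file headers, the deposited scanner files give intensity on a linear scale, as pixel medians and pixel means for every spot and its surroundings. Per the labels' protocols total RNA was labelled with Hy5, a red dye, while the only filled intensity columns are headed with the wavelength of a green channel, a mismatch that was not resolved. No source used here names the scanner or its software. The authors' deposited table also holds linear intensity, scaled to the same median (31) for each array, and lists only part of the probes. It was used as an alternative.

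Medians were corrected with normexp (offset 50) over all 3200 spots, quantile-normalized across the 2019 human probes and log2-transformed (limma 3.58.1, R 4.3.3). The offset shrinks differences of dim probes. limma's lmFit and eBayes (residual degrees of freedom 4, prior 1.52) compared cisplatin with control over all 324 tested probes. The steps were tested on simulated data whose non-zero changes were larger than the members' differences, so this did not check differences of that size. Figures were drawn with matplotlib 3.10.9.

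Named are every member probe, the 3 nearest tested probes of each tested member, miRNA genes within 10 kb of a member hairpin, and up to 4 of the brightest probes of the MCL1 and cyclin D1 list. Members and lists were chosen with earlier results of these data known.

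The fit reported is unpaired. Deviations of same-numbered samples correlated at 0.44, 0.24 and 0.20, so differences within pairs are also given, and the replicate number is a block in 1 alternative. Cisplatin 2 and control 3 correlated at 0.23, close to the second and the third pair, and the pairing rests on the labels' numbers and this check, not on a stated design.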

Additional observations from a re-analysis of the deposited data

How the results depend on the processing

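None of the 4 tested members was called by limma under any alternative (adjusted p of 0.237 to 0.941 for the miR-365 3p probe). The miR-365 3p probe stayed positive in 20 alternatives (0.073 to 0.66), miR-193b-3p in 21 (0.025 to 0.70), and miR-193a-5p stayed negative in 20 (-0.33 to -0.059). Detection on all 6 arrays left the miR-365 3p probe and miR-193a-5p untested, and blocks, moderation and filters cannot change a value. miR-193a-3p turned positive in 6 of 21, at 8.8e-04 without background correction, 0.050 with median scaling, 0.032 without normalization, 0.16 with the authors' values, and up to 0.073 when 1 array was left out (0.054 and 0.073, lowest -0.12). With median scaling and without normalization it was -0.039 less the shift of all tested probes. Less the shift with 75th percentile scaling, the miR-365 3p probe was at 0.16 and miR-193a-5p at -0.24.

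The number of members detected on all arrays of a group was 4, but 2 with a limit of 3 SD, 7 with a trimmed limit and 0 with pixel means, where a few bright blanks raised the limit to as much as 828.5. With a trimmed limit, an alternative chosen after seeing the data, pixel means gave 6. Leaving out 1 array gave 4 to 5.

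The number of probes called overall was 1. It was 3 without background correction, 4 with cyclic loess, 2 with median scaling and 2 with the 75th percentile. It was 0 in these settings, each given with its probes at an unadjusted p under 0.05 by limma: unnormalized values (33), the authors' table (37), all 2019 probes (97), probes detected on 6 arrays (39), the replicate block (57), trended robust moderation (38), slide positions 3 and 4 (38) and pixel means (34). Leaving out 1 array gave 0 to 3. The replicate block changed no call of a member. Except where stated, the cause was not tested.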
